A study of Mus musculus with 6 samples.

Results

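The genes described here encode the mitochondrial respiratory chain in the mouse duodenum, complex by complex, and are compared between wild-type mice and mice lacking the vitamin D receptor (VDR-null). They were chosen by a rule on names, set with earlier results of these data known. The platform annotation had to pair a probe set with the gene's symbol only. The symbol had to begin with Ndufa, Ndufb, Ndufc, Ndufs, Ndufv, Sdh, Uqcr, Cox4, Cox5, Cox6, Cox7, Cox8 or Atp5. Of 22180 genes with such a probe set, 93 met the rule: 42 of complex I, 8 of complex II, 8 of complex III, 17 of complex IV and 18 of complex V. The names take in more than subunits. There were 70 subunits, 8 tissue-restricted isoforms, 13 assembly factors or related proteins (the Ndufaf and Sdhaf genes and Cox7a2l) and 2 pseudogenes. Cox6c, Ndufb2, Ndufb4, Ndufs6 and Uqcr10 share every probe set that carries their name with another symbol and are not included.

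The respiratory chain lies in the inner mitochondrial membrane. Complex I passes electrons from NADH, and complex II (succinate dehydrogenase) from succinate, to ubiquinone; complex III hands them to cytochrome c and complex IV to oxygen. Complex V, the ATP synthase, uses the resulting proton gradient to make ATP. Complex II is built from nuclear genes alone, whereas the others each join nuclear-encoded subunits with subunits encoded in mitochondrial DNA. In the duodenum the absorptive enterocytes of the villus are rich in mitochondria, which pay for the sodium pump that drives nutrient uptake.

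Total RNA from the duodenum was measured on whole-transcript arrays, 1 per mouse, in 3 wild-type and 3 VDR-null animals. All 6 mice were 10 weeks old and of the C57Bl/6 background. The sources used here name neither the targeted allele nor the sex or diet of the mice. Each value is a log2 signal, so that a difference of 1 is a doubling, and differences are VDR-null minus wild-type throughout, with genotypes as labelled. The test took genes that exceeded the table's overall median, 5.17, on 3 or more of the 6 arrays, which 13174 genes and 84 of the 93 respiratory chain genes did. Below it were the isoforms Ndufa4l2, Cox6a2, Cox7b2, Cox8b and Cox8c, the subunits Ndufs5 and Atp5j2, and the pseudogenes Uqcrh-ps1 and Atp5c1-ps. Their values run from 2.66 for Cox7b2 to 5.23 for Atp5j2, and no difference is given for them. Levels of different genes are not set against each other, because each probe set has its own brightness.

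The probe set of Vdr did not separate the genotypes, with signals of 10.72, 10.95 and 11.11 in wild-type against 10.99, 10.86 and 10.85 in VDR-null duodenum, a log2 difference of -0.03 ± 0.12 (SE). Without knowing which part of the gene is missing, this signal cannot serve as a check of the labels. The replicate 1 array of each genotype stood apart in marker genes of the villus. The 24 tested enterocyte brush border markers averaged from 9.18 (replicate 1) to 10.30 on the wild-type arrays and from 10.12 to 10.93 (replicate 1) on the VDR-null arrays, and 23 of the 24 had a higher VDR-null mean. The 14 smooth muscle markers, all lower in VDR-null, averaged 9.16 to 9.65 in wild-type and 9.09 to 9.12 in VDR-null duodenum. VDR-null replicate 3 was high in the 3 tested pancreatic acinar markers, with a mean of 9.81 against 5.87 to 6.42 on the wild-type arrays. In a piece of gut, fewer cells of a type and less RNA per cell cannot be told apart.

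Most respiratory chain genes had a slightly higher mean in VDR-null than in wild-type duodenum, and none passed the test. The VDR-null mean was higher for 69 of the 84 tested genes (82.1%), against 44.0% of all genes tested. Neither this share over all genes nor those below were matched to the respiratory chain genes for signal level. The differences were small: the median was 0.066, a 1.05-fold change, against -0.03 over all genes, and 76 of 84 lay within 0.2 either way. At an adjusted p under 0.05 the limma test called 0 respiratory chain genes and 0 of all 13174 genes (0.0%). At an unadjusted p under 0.05 it gave 3 respiratory chain genes, all higher in VDR-null (Ndufaf2, Sdhd and Ndufa11), where 2.2% of all genes were higher and 3.03% lower at that level.

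**Figure D1:**
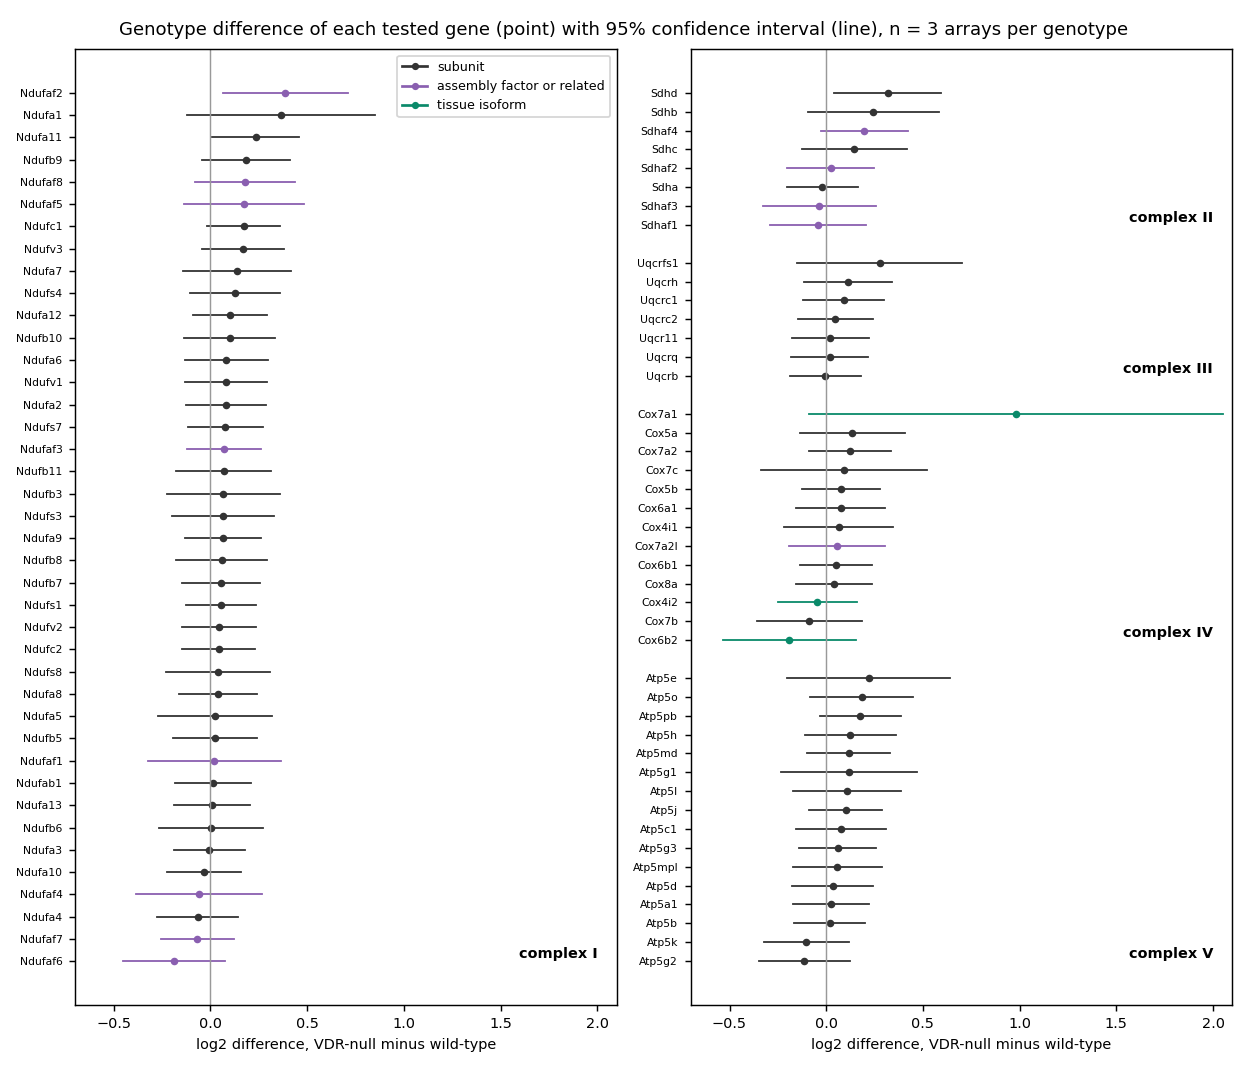
Log2 difference between genotypes (VDR-null minus wild-type, x axis) of each of the 84 tested respiratory chain genes, by complex, with its 95% confidence interval from limma; colours mark subunits, assembly factors and tissue isoforms. Most points lie a little to the right of 0, 69 of 84, and all but 3 intervals (Ndufaf2, Ndufa11 and Sdhd) include it.

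Array by array, 15 of the 84 genes read higher on every VDR-null array than on any wild-type array, where 4.87% of all genes did so. They are Ndufaf2, Ndufa11, Ndufb9, Ndufc1, Ndufv3, Ndufs4, Ndufa12, Ndufaf3 and Ndufs1 of complex I, Sdhd and Sdhaf4 of complex II, Uqcrc1 of complex III, Cox7a2 of complex IV, and Atp5pb and Atp5j of complex V. Only Ndufaf6 read lower on every VDR-null array, against 6.22% of all genes. The count of 15 depends on the scaling of the arrays: after a second quantile normalization it was 6, with 5 in the other direction (4.14% and 6.86% of all genes). It was 10 with each array centred on its median (4.03% of all genes) and 12 with cyclic loess (5.53%). Leaving out 1 array raises the share of all genes without overlap too. The count was 35 without wild-type replicate 2 (all genes 13.1%), 25 when VDR-null replicate 3 was dropped (16.6%) and 23 for VDR-null replicate 1 (8.07%), and 16 to 20 without each of the others (7.34% to 7.88%). The count of 69 genes with a higher mean likewise became 50 (59.5%, all genes 43.0%) after the second quantile normalization.

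The genes varied little among mice. Their median standard deviation within a genotype was 0.092, against 0.15 over all tested genes, and 78 of the 84 confidence intervals lay within a 1.5-fold difference in either direction. The replicate 1 arrays were the extremes for part of the genes. Wild-type replicate 1 was the lowest of the 6 arrays for 39 genes (46.4%; all genes 19.6%), and VDR-null replicate 1 the highest for 33 (39.3%; all genes 24.4%). Both held for 21 of the 84 genes and for 13.5% of all genes. The reverse order, with wild-type replicate 1 highest and VDR-null replicate 1 lowest, held for Ndufaf6 alone among these genes, against 18.0% of all genes. Without both replicate 1 arrays the mean difference over the 84 genes was 0.051 instead of 0.083, and 61 genes had a higher VDR-null mean, beside 54.5% of all genes. These arrays are also the lowest and the highest in brush border markers, and the part of that in the differences was not tested. A fit that took the brush border level as covariate gave a mean difference of 0.050. In that fit 71.4% of the 84 genes had a positive difference, against 54.6% of all genes. The brush border level itself differed between genotypes, by a mean of 0.62, so the fit cannot tell it apart from genotype.

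**Figure D2:**
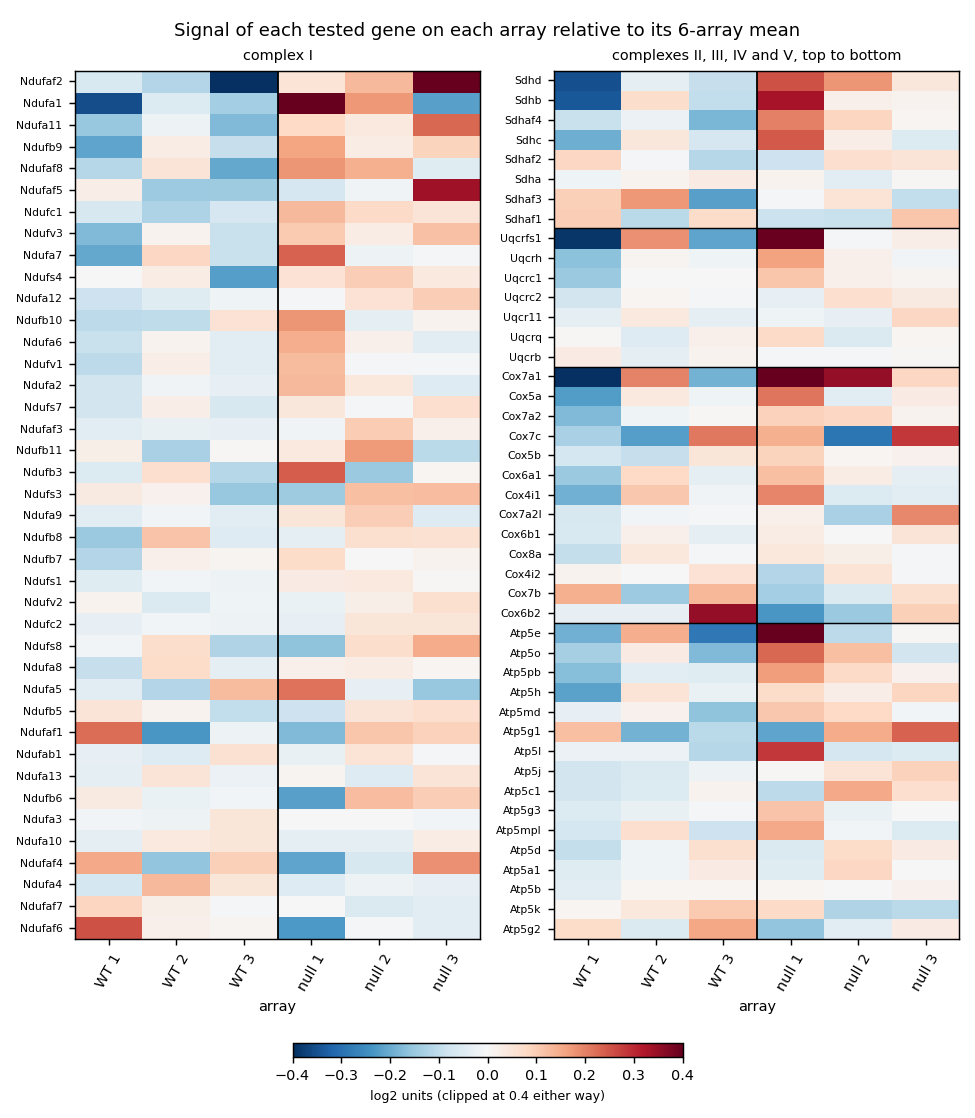
Log2 signal of each of the 84 tested genes on each array relative to its own mean over the 6 arrays, with wild-type (WT) and VDR-null arrays on either side of the vertical line and colours clipped at 0.4. Blue in the column of wild-type replicate 1 and red in that of VDR-null replicate 1 recur down the subunits; of the 84 genes, 39 are lowest on the one and 33 highest on the other.

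In complex I, subunits of each part of the enzyme had slightly higher VDR-null means. Of its 40 tested genes 34 had a higher VDR-null mean, with a median difference of 0.066, 9 were higher on every VDR-null array and 1 was lower on every one. Averaged over the 40 genes, the deviation from each gene's own mean was -0.045, -0.015 and -0.052 on wild-type arrays 1 to 3 and 0.034, 0.036 and 0.041 on the VDR-null arrays. The 2 genotypes did not overlap in this average under any of the 4 scalings. After the second quantile normalization the gap was narrow, from -0.0056 on wild-type array 2 to 0.0033 on VDR-null array 1. As reported, the average of the 26 accessory subunits did not overlap either. That of the 6 core subunits did, with 0.011 on wild-type array 2 and -0.020 on VDR-null array 1. All 6 tested core subunits (Ndufs1, Ndufs3, Ndufs7, Ndufs8, Ndufv1 and Ndufv2), which with the exception of Ndufs3 hold the flavin or iron-sulfur clusters, had a higher mean, by 0.039 to 0.080, and so had 23 of the 26 accessory subunits; after the second quantile normalization these counts were 3 and 17.

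Ndufa11, an accessory subunit of the membrane arm, read 9.98, 10.11 and 9.95 in wild-type against 10.21, 10.17 and 10.36 in VDR-null duodenum. Every VDR-null array lay above the wild-type arrays, by little, and the difference of 0.23 ± 0.10 (SE; 1.18-fold) had an unadjusted p of 0.0446 and a limma adjusted p of 0.683. Its second, dimmer probe set gave -0.08, so that the gene's probe sets disagree. Ndufc1, a small subunit of the membrane arm, read 7.17, 7.11 and 7.17 in wild-type against 7.37, 7.31 and 7.29 in VDR-null duodenum, a difference of 0.17 ± 0.08 (adjusted p = 0.683). Ndufa1, named because it is 1 of 4 genes that differed by over 0.3, read 7.19, 7.49 and 7.41 against 8.14, 7.72 and 7.33. Its genotypes overlapped, with VDR-null replicate 1 the highest array and a difference of 0.37 ± 0.21. Ndufa4, first described with complex I and now placed in complex IV, differed by -0.07 ± 0.09.

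Of the 8 assembly factors of complex I, 5 had a higher VDR-null mean. Ndufaf2, a chaperone of late assembly, read 5.64, 5.58 and 5.29 in wild-type against 5.75, 5.82 and 6.09 in VDR-null duodenum. The genotypes did not overlap, VDR-null replicate 3 was the highest array, and the difference was 0.39 ± 0.14 (1.31-fold; unadjusted p = 0.0258, adjusted p = 0.683). It did not follow the replicate 1 arrays, being 0.52 without both of them. Ndufaf6, another assembly factor, read 6.69, 6.45 and 6.45 in wild-type against 6.21, 6.43 and 6.39 in VDR-null duodenum, a difference of -0.19 ± 0.11. Among 8 complex I assembly factors whose names fall outside the rule, such as Acad9 (-0.09 ± 0.12), Tmem126b (0.06 ± 0.10) and Timmdc1 (-0.04 ± 0.08), 2 were higher and 6 lower, with a median of -0.04.

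**Figure D3:**
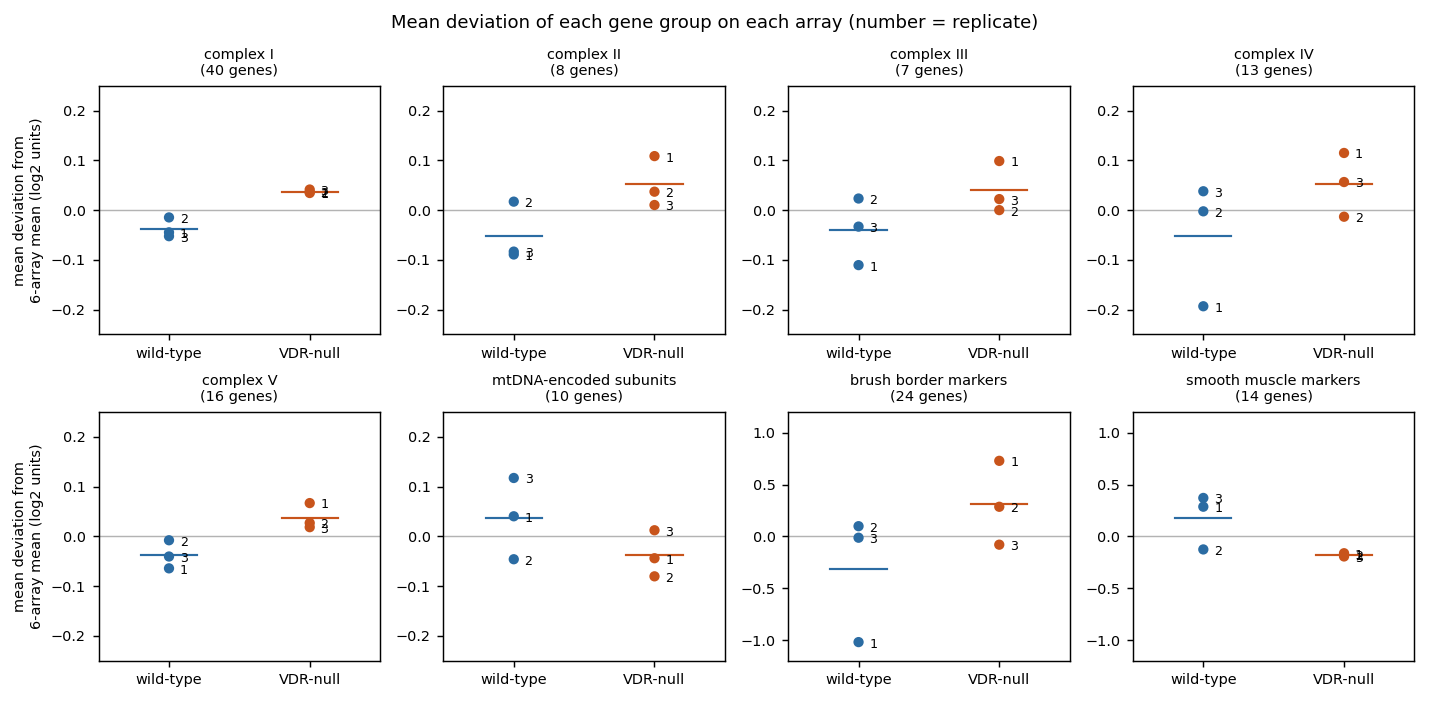
Mean deviation of each gene group from its genes' own 6-array means (y axis, log2 units; with a wider scale for the marker groups) on each array, with the replicate number beside each point and the genotype mean as a line. The genotypes are apart for complexes I and V and overlap for complexes II, III and IV, for the subunits encoded in mitochondrial DNA and for the brush border markers; the VDR-null arrays lie below all wild-type arrays for the smooth muscle markers.

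In complex II, 3 of the 4 subunits of succinate dehydrogenase had a higher VDR-null mean while the catalytic subunit did not. Sdha, the flavoprotein that oxidises succinate, read 11.45, 11.48 and 11.50 in wild-type against 11.48, 11.42 and 11.47 in VDR-null duodenum. Its arrays lay within 0.08 of each other, and its difference of -0.02 ± 0.08 had a 95% confidence interval of -0.20 to 0.17. Sdhd, a membrane anchor, read 9.50, 9.82 and 9.76 in wild-type against 10.11, 10.03 and 9.90 in VDR-null duodenum. All 3 VDR-null arrays were higher, and the difference was 0.32 ± 0.12 (1.25-fold; interval 0.04 to 0.59; unadjusted p = 0.0294, adjusted p = 0.683).

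The iron-sulfur subunit Sdhb read 9.23, 9.64 and 9.47 against 9.90, 9.59 and 9.59, and the other anchor Sdhc 9.80, 10.04 and 9.93 against 10.24, 10.02 and 9.94. In both genes replicate 1 was the lowest wild-type and the highest VDR-null array and the genotypes overlapped. Their differences were 0.24 ± 0.14 and 0.15 ± 0.11; leaving out both replicate 1 arrays gave 0.032 for Sdhb, -0.00015 for Sdhc and 0.17 for Sdhd. Of the 4 Sdhaf assembly factors, 2 were higher. Sdhaf4, which guards the free flavoprotein, read 6.46, 6.52 and 6.37 against 6.75, 6.63 and 6.56, a difference of 0.20 ± 0.09 with no overlap. Sdhaf1, which helps the iron-sulfur subunit to mature, differed by -0.04 ± 0.10.

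**Figure D4:**
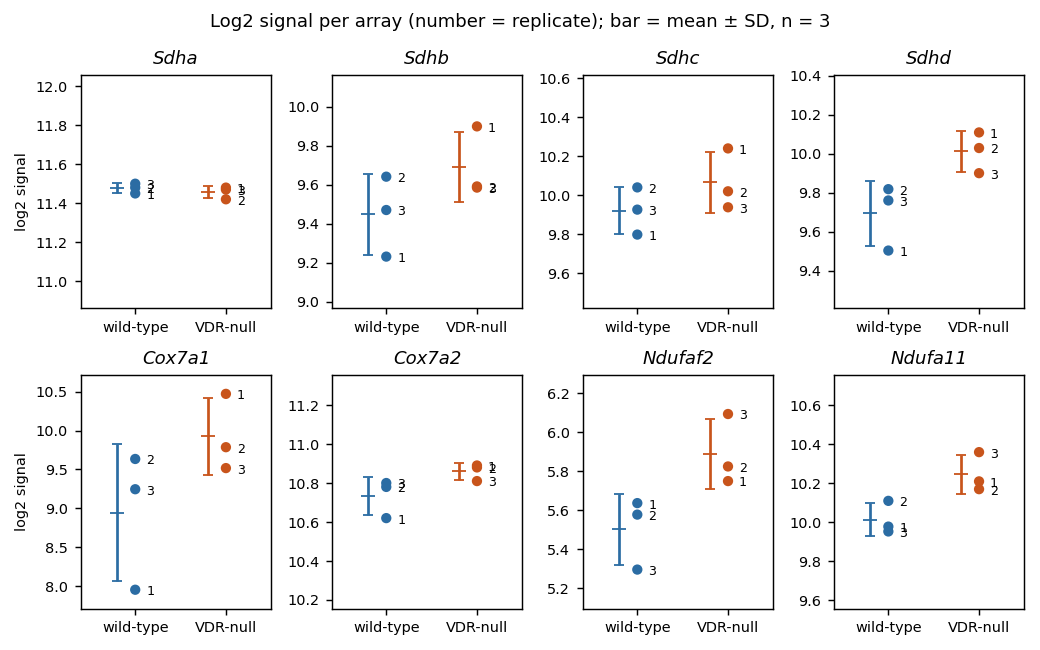
Log2 signal per array of the 4 succinate dehydrogenase subunits, of Cox7a1 and Cox7a2, and of Ndufaf2 and Ndufa11, with mean ± SD (n = 3) beside the points and the replicate number at each point; y axes differ in range between panels. Sdha is level, Sdhb, Sdhc and Cox7a1 have replicate 1 as lowest wild-type and highest VDR-null array, and the genotypes do not overlap for Sdhd, Cox7a2, Ndufaf2 and Ndufa11.

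In complex III, 6 of 7 tested subunits had a higher VDR-null mean, with a median difference of 0.047; after the second quantile normalization 3 were, with a median of -0.0028. The Rieske iron-sulfur protein Uqcrfs1 read 7.92, 8.50 and 8.10 in wild-type against 8.71, 8.30 and 8.34 in VDR-null duodenum. Replicate 1 was again the lowest wild-type and the highest VDR-null array; the difference of 0.28 ± 0.18 was 0.023 without both. Uqcrc1, a core protein of the complex, read 11.39, 11.54 and 11.54 against 11.65, 11.56 and 11.55, with no overlap but a difference of only 0.09 ± 0.09, which was -0.0028 after the second quantile normalization. Uqcrh, the hinge protein, differed by 0.11 ± 0.10, and Uqcrb, which lies near the ubiquinone site, by -0.0056 ± 0.077. Outside the name rule, the catalytic subunit cytochrome c1 of this complex (Cyc1, 0.09 ± 0.09) and its electron acceptor cytochrome c (Cycs, 0.15 ± 0.10) were also higher without passing the test.

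Complex IV held the gene with the largest difference, Cox7a1, the form of subunit 7a typical of heart and skeletal muscle. It read 7.96, 9.64 and 9.25 in wild-type against 10.47, 9.79 and 9.52 in VDR-null duodenum. Its arrays span more than those of 99.03% of tested genes, the genotypes overlap, and the difference was 0.98 ± 0.45 (1.97-fold; 95% confidence interval -0.09 to 2.05; limma adjusted p = 0.683). Leaving out wild-type replicate 1 gave 0.49, leaving out VDR-null replicate 1 gave 0.71 and leaving out both gave 0.21, and a fit with the brush border level as covariate gave 0.14. Of 10 markers of striated muscle 4 were bright enough to be tested, with a mean of 5.98 to 6.11 on wild-type and 6.01 to 6.08 on VDR-null arrays, and Myh1, Myh2, Myh4, Mb, Actn3 and Atp2a1 were below the filter. Of the 7 fat markers with a probe set, Adipoq, Plin1, Lep, Retn and Ucp1 were below the filter, at 3.35 to 4.86 on the 6 arrays. Only Cidea (4.95 to 5.54) and Cidec were tested, and both had a higher VDR-null mean, by 0.050 and 0.83. Cidec, a lipid droplet protein, read 6.25, 8.09 and 8.06 in wild-type against 9.18, 8.47 and 7.23 in VDR-null duodenum.

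The paralogue Cox7a2, the form found in most tissues, read 10.62, 10.78 and 10.80 in wild-type against 10.89, 10.88 and 10.81 in VDR-null duodenum, a difference of 0.12 ± 0.09 with no overlap. The sequences just upstream of the RefSeq starts of the paralogues (build GRCm38.p6, 250 bases, 5′ to 3′ on the gene's strand) are shown because the genes differ so much in their spread over the same 6 arrays; neither holds any of the motifs searched for below.
Cox7a1, chr7:30183921-30184170, plus strand: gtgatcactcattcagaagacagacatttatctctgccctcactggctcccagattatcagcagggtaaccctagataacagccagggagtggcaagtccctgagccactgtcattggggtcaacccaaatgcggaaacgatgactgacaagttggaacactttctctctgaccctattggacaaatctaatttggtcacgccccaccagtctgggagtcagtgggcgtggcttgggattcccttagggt
Cox7a2, chr9:79759854-79760103, minus strand: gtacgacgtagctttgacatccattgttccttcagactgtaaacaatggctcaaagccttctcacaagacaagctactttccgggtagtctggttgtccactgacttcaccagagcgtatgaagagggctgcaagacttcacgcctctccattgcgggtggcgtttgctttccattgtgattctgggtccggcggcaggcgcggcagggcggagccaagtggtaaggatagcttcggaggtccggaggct

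The remaining complex IV genes stayed within 0.2 either way. Of the complex's 13 tested genes 10 had a higher VDR-null mean, with a median difference of 0.064, but 6 of 13 after the second quantile normalization, with a median of -0.03. Without Cox7a1, 9 of 12 were higher, with a mean difference of 0.032. Cox4i1, a ubiquitous subunit, differed by 0.06 ± 0.12 and its lung-type paralogue Cox4i2 by -0.05 ± 0.09. The sign of Cox4i2 turned with cyclic loess, and those of Cox4i1, Cox6b1 and Cox8a with the second quantile normalization. Cox6a1 differed by 0.07 ± 0.10 and Cox8a by 0.04 ± 0.08, while their muscle-type paralogues Cox6a2 and Cox8b were below the filter. Cox6b1 differed by 0.05 ± 0.08 and Cox6b2, known from testis, by -0.19 ± 0.14. Cox7b differed by -0.09 ± 0.11, but its dimmer probe set by 0.37, and the paralogues Cox7b2 and Cox8c were below the filter on all arrays. Averaged over the complex, the wild-type arrays deviated by -0.19, -0.0025 and 0.04 and the VDR-null arrays by 0.11, -0.01 and 0.06, so that the genotypes overlapped.

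In complex V, 14 of 16 tested subunits had a higher VDR-null mean, with a median difference of 0.088. The array averages were -0.06, -0.0078 and -0.04 in wild-type against 0.07, 0.03 and 0.02 in VDR-null duodenum; they did not overlap, although they did after the second quantile normalization. The 5 genes of the F1 head and the 11 of the membrane part and stalk had mean differences of 0.075 each. Atp5b, the beta subunit that forms ATP, read 12.72, 12.77 and 12.77 against 12.77, 12.76 and 12.78, a difference of 0.02 ± 0.08 with an interval of -0.17 to 0.20. The alpha subunit Atp5a1 differed by 0.03 ± 0.08, gamma (Atp5c1) by 0.08 ± 0.10 and delta (Atp5d) by 0.03 ± 0.09, where alpha and delta turned negative after the second quantile normalization.

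Atp5pb, of the peripheral stalk, read 9.87, 10.00 and 9.99 in wild-type against 10.21, 10.12 and 10.06 in VDR-null duodenum. It did not overlap and differed by 0.18 ± 0.09 (adjusted p = 0.683). Atp5o, the link between stalk and head, differed by 0.18 ± 0.11, and Atp5md, a small membrane subunit, by 0.12 ± 0.09. Atp5e, the epsilon subunit of the F1 head, read 8.81, 9.14 and 8.72 against 9.43, 8.89 and 9.00 and overlapped, with a difference of 0.22 ± 0.18. Of the 3 genes for the c subunit of the rotor, Atp5g1 and Atp5g3 were higher and Atp5g2 lower, by -0.11 ± 0.10, with -0.15 in its second probe set.

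The subunits encoded in mitochondrial DNA differed in sign from the nuclear ones. All 10 with a probe set of their own (ND1 to ND6 and ND4L of complex I, CYTB of complex III, COX1 and COX3 of complex IV) had a lower VDR-null mean, with a median of -0.07, and none passed the test. All 10 were also lower under each of the other scalings. COX1, the catalytic subunit of complex IV, read 13.20, 13.09 and 13.20 in wild-type against 13.06, 13.03 and 13.14 in VDR-null duodenum, a difference of -0.08 ± 0.09. ND3 differed by -0.12 ± 0.09 and ND4L by -0.10 ± 0.09. The genotypes overlapped in all 10 genes, whose average deviated by 0.04, -0.05 and 0.12 on the wild-type and -0.04, -0.08 and 0.01 on the VDR-null arrays. All but ND6 read at least 12.55 on every array, near the highest value of the table, 13.8. The difference in sign between the nuclear and mitochondrial groups was not tested.

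Mitochondrial and energy genes outside the name rule did not move as a block, and none of 157 tested genes in 11 lists passed the test. The 11 lists include 3 described above: the subunits encoded in mitochondrial DNA, Cyc1 with Cycs, and the complex I assembly factors outside the rule. Several counts of genes with a higher VDR-null mean moved with the scaling. After the second quantile normalization the tricarboxylic acid cycle list had 8 of 16 genes higher. The assembly factors of complexes III and IV then had 11 of 23 higher and the ATP synthase regulators 1 of 4. The 16 enzymes of the tricarboxylic acid cycle were higher in 11 cases (median 0.04), among them citrate synthase Cs (0.23 ± 0.14), Dlst of the 2-oxoglutarate dehydrogenase complex (0.25 ± 0.14) and the succinyl-CoA ligase subunit Sucla2 (0.26 ± 0.15). In this list too, wild-type replicate 1 was the lowest array for 10 of the 16 genes. Of 23 assembly factors of complexes III and IV, 15 were higher (median 0.04), including the copper chaperone Sco1 (0.20 ± 0.10) and Lyrm7 (0.16 ± 0.09), with Uqcc2 at -0.19 ± 0.12. Of 4 ATP synthase regulators and assembly factors 3 were higher (median 0.04), such as Atpaf2 at 0.12 ± 0.08 and the inhibitor Atpif1 at 0.07 ± 0.09, against Tmem70 at -0.06 ± 0.08.

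The lists of genes that build mitochondria are read beside the 44.0% of all genes with a higher VDR-null mean. Of 36 mitochondrial ribosomal proteins 11 were higher and 25 lower (median -0.02; 18 higher with cyclic loess), with Mrps27 at -0.33 ± 0.16, Mrpl20 at 0.22 ± 0.10 and Mrpl27 at 0.25 ± 0.14. Of 18 genes of protein import 5 were higher and 13 lower (median -0.05), among them the chaperones Hspa9 (-0.17 ± 0.09) and Hspd1 (-0.30 ± 0.19) and the channel component Timm50 (-0.20 ± 0.11). Of 16 regulators of mitochondrial biogenesis 6 were higher and 10 lower (median -0.04), including the DNA helicase Twnk (-0.28 ± 0.13), the coactivator Pprc1 (-0.23 ± 0.15) and the nuclear receptor Esrra (0.25 ± 0.16). Across these lists VDR-null replicate 1 was the lowest array on average. All 24 cell division markers also had a lower VDR-null mean, from 8.58 to 9.03 on wild-type and from 8.30 to 8.86 on VDR-null arrays, lowest on VDR-null replicate 1; their part in these values was not tested.

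Outside mitochondria, 9 of 13 tested glycolysis genes were higher (median 0.07), with the mutase Pgam1 at 0.19 ± 0.08, lactate dehydrogenase Ldha at 0.16 ± 0.08 and hexokinase Hk2 at -0.36 ± 0.20. Of 11 mitochondrial antioxidant and uncoupling genes 5 were higher (median -0.04). The ADP/ATP carriers differed in sign, Slc25a5 at 0.13 ± 0.09 and Slc25a4 at -0.20 ± 0.13, and the lipid peroxidase Gpx4 was at 0.21 ± 0.20.

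Promoters were examined because several respiratory chain genes are textbook targets of nuclear respiratory factors. RefSeq starts in build GRCm38.p6 were found for 76 of the 93 genes, 5 of them with several, and a window of 250 bases before to 50 after each start was searched on both strands. The NRF1 motif GCGCATGC occurred in 15.8% of these genes, in 5.48% of tested genes and in 3.05% of all genes in the promoter table. The ETS-family motif CCGGAAG, to which GABPA binds, occurred in 28.9%, 18.4% and 9.93%, and the YY1 motif AAGATGGC in 13.2%, 4.86% and 3.19%. The motif of the estrogen-related receptors, TCAAGGTCA, occurred in 2 of the 76 genes, Atp5g3 and Sdhd (2.63%, against 0.329% and 0.466%). The direct repeat of the vitamin D receptor with 3 bases between the repeats, searched as 1 exact spelling, occurred in 0 of the 76 genes and in 2 of 27025 genes in all, so its letters are rare in such windows. These are matches of letters and were not tested as binding sites.

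The windows before the start of 3 genes with such matches, and of the complex I gene with the smallest p, are given with the matches in capitals. In Ndufa11 the NRF1 motif matches both strands with overlap, so that the capitals cover 10 bases; in Sdhb it matches on the reverse strand; in Sdhd the capitals are an ETS match on the reverse strand. The estrogen-related receptor match of Sdhd and an ETS match of Sdhb lie after the start and are not shown, and Ndufaf2 has no match.
Ndufa11, chr17:56717512-56717761, plus strand: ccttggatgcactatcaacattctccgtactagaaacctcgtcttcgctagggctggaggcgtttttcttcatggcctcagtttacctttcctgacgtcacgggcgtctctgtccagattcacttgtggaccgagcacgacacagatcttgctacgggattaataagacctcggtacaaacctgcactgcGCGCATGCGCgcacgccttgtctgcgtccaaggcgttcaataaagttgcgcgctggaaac
Sdhb, chr4:140961021-140961270, plus strand: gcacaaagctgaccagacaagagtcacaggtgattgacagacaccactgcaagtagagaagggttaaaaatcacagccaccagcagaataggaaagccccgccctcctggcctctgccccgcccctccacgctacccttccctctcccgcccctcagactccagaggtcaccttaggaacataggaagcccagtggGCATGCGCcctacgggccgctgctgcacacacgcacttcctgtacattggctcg
Sdhd, chr9:50603850-50604099, minus strand: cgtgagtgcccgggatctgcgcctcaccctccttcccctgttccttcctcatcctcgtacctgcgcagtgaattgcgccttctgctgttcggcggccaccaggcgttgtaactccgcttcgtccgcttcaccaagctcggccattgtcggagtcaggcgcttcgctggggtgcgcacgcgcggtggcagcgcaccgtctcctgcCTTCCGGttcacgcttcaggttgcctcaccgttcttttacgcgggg
Ndufaf2, chr13:108158626-108158875, minus strand: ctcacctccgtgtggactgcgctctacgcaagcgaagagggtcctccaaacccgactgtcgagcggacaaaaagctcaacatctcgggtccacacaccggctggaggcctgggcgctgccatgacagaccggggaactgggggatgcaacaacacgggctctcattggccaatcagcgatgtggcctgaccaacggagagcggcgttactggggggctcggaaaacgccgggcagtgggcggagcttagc
Of the 13 genes with a promoter in the table whose VDR-null arrays all lay above, 2 held the NRF1 motif (15.4%). The ETS motif was in 2 (15.4%), the YY1 motif in 4 (30.8%) and that of the estrogen-related receptors in 1 (7.69%). Over the 76 genes the shares were 15.8%, 28.9%, 13.2% and 2.63%, and over tested genes 5.48%, 18.4%, 4.86% and 0.329%. These 13 genes were picked by their own values, and the shares were not tested.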

How the data were processed

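Per the labels, duodenal RNA of each mouse was put on an Affymetrix Mouse Gene 2.0 ST array. Per the submitters' processing notes, the authors summarised each probe set with RMA in the software Affymetrix Expression Console, and the deposited table holds log2 values. The base of 2 is inferred from the method and from the lowest and highest value, 1.99 and 13.8; whether RMA was run on the 6 arrays jointly is unstated. Of 41345 probe sets 23521 had 1 gene symbol, 1814 several and 16010 none. Each gene is represented by its brightest probe set, on average over the 6 arrays. Genes under 5.17, the overall median, on more than 3 arrays were left untested. The arrays had medians of 5.15 to 5.19.

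The comparison used limma 3.58.1 (R 4.3.3, lmFit then eBayes, two-sided, genotype alone in the model). Benjamini-Hochberg adjustment was over all 13174 tested genes, with a threshold of 0.05. The number of arrays limits the precision. Each p-value sets the genotype difference against the spread between arrays within a genotype, moderated over all tested genes. The procedure was run on simulated data with independent noise for each gene. The planted changes were larger than the differences of the respiratory chain genes, so the simulation does not cover changes this small. Members, gene lists and motifs were chosen with earlier results of these data known, so no p-value was taken over a list. Genes named are, of each complex, the 3 with the smallest p and those with the largest and smallest difference; paralogues of tissue isoforms; succinate dehydrogenase subunits; the catalytic subunits of complex V; untested members; and up to 3 genes of each related list. Ndufa1 and genes counted as not overlapping were named after their values were seen. Marker lists for 18 cell types were averaged on each array; besides those in the text, the 13 villus and lipid markers (median difference 0.72) and 7 T cell markers (0.70) were all higher, and the crypt stem cell (12 markers, -0.33), Brunner gland (5, -1.06), Paneth cell (5, -0.23), endothelial (5, -0.37), fibroblast (6, -0.26) and enteric neuron and glia markers (4, -0.11) all lower. Goblet (0.0041), enteroendocrine (-0.04), tuft (0.05) and macrophage and dendritic cell markers (-0.02) were mixed.

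Alternatives covered the filter, the scaling, the prior, weighting of arrays, a block for the replicate number, arrays left out, averaged probe sets, a brush border covariate and the subunits alone.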

Additional observations from a re-analysis of the deposited data

How the results depend on the processing

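No respiratory chain gene and no other gene passed the limma threshold under any setting run, where the lowest adjusted p of any gene ran from 0.15 with array weights to 0.9995 without both replicate 1 arrays. The values that follow are the number of genes with VDR-null arrays all above (15 as reported) or all below (1) and the mean or median difference of a complex. A second quantile normalization gave 6 above and 5 below (4.14% and 6.86% of all genes), a mean of 0.043 and median of 0.023 over all members, 0.038 and 0.024 for complex I, and a mean of 0.036 for complex V. Cyclic loess gave 0 below (5.37% of all genes), a mean of 0.094 and median of 0.084 for complex I, and a median of 0.12 for complex V. With no filter 2 genes were below (6.14% of all genes). Without both replicate 1 arrays 27 were above and 7 below, beside 15.3% and 13.71% of all genes, with a mean of 0.051 and median of 0.029 over all members, a mean of 0.016 for complex III, 0.0039 for complex IV and 0.047 (median 0.032) for complex V. With the brush border covariate these were 0.050 and 0.032, 0.017, 0.0059, and 0.046 (median 0.035). Among subunits alone 0 were below, and complex II had a mean of 0.17 and median of 0.20. Leaving out 1 array at a time gave 16 to 35 above (35 when wild-type replicate 2 was dropped, 25 for VDR-null replicate 3 and 23 for VDR-null replicate 1), beside 7.34% to 16.6% of all genes, and 2 to 4 below, beside 8.67% to 18.6%. It gave a median of 0.043 to 0.081 for complex I and 0.053 to 0.083 for complex V.

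Of the named genes, 30 values changed sign. After the second quantile normalization these were Atp5a1 (-0.066), Atp5d (-0.072), Cox4i1 (-0.027), Cox6b1 (-0.040), Cox8a (-0.048) and Uqcrc1 (-0.0028), with cyclic loess Cox4i2 (0.0021) and Uqcrb (0.0020), with array weights Cox4i1 (-0.015), and with averaged probe sets Cox7b (0.14). Without both replicate 1 arrays they were Cox4i1 (-0.097), Cox6a1 (-0.022), Cox7b (0.010), Cox8a (-0.0096), Sdhaf1 (0.028), Sdhc (-0.00015) and Uqcrb (0.0088). With the brush border covariate they were Atp5b (-0.00026), Cox4i1 (-0.094), Cox6a1 (-0.034), Cox7b (0.029), Cox8a (-0.020), Sdhaf1 (0.054), Sdhc (-0.0019) and Uqcrb (0.014). With single arrays left out the values ran from -0.0069 to 0.056 for Atp5a1, -0.0084 to 0.074 for Atp5d, -0.019 to 0.13 for Cox4i1 and -0.023 to 0.0087 for Uqcrb. The cause was not tested.

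The labels do not say whether the replicate numbers pair the samples. Deviations from the genotype mean correlated at -0.62, 0.19 and -0.26 between same-numbered arrays, and at -0.6 to 0.68 between the others. With 3 arrays per genotype these correlations cannot decide whether arrays are paired or share a batch. With the replicate number as a block 0 genes passed the limma threshold and the lowest adjusted p was 0.831. The differences were those of the fit without it, as the balanced design requires.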
